A study of Mus musculus with 69 samples.

Results

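Fgf5, Otx2, Pou3f1, Utf1, Pou5f1, Sall4, Lin28a, Lin28b and Zic2 are formative and primed pluripotency factors of the mouse epiblast. They were taken by symbol, 9 of the 55367 gene symbols of the count table, and each was followed through all 69 libraries of a study of cell competition in mosaic gastruloids, aggregates of mouse embryonic stem (mES) cells that mimic the embryo around gastrulation. RNA was sequenced in bulk, after poly(A) selection, from 3 clones of the line E14tg2A: WT–mCherry, WT–emiRFP and p53KO–emiRFP, each tagged by a fluorescent histone H2B. The p53KO clone was derived from the WT–emiRFP clone and has a frameshift in exon 4 of Trp53, so that p53 loss rests on 1 clone and each WT colour on 1 clone. The 0 h libraries hold mES cells kept in serum and LIF, and all later libraries hold cells sorted by colour at 48, 72, 96, 120 or 144 h from gastruloids seeded with 150 WT–mCherry and 150 WT–emiRFP cells (WT + WT) or with 150 WT–mCherry and 25 p53KO–emiRFP cells (WT + p53KO). In the study's protocol, a pulse of the Wnt agonist CHIR runs from 48 to 72 h in both gastruloid types. Gastruloids taken at 48 h were thus at its start, and changes from 48 h on span it. Every one of the 23 conditions has 3 libraries, numbered as replicates in the labels, and the study collected its RNA in 3 independent experiments on separate occasions. The sources do not say that a replicate number marks an experiment. A gene passed the test where its p adjusted over all genes by the Benjamini-Hochberg method was under 0.05 in edgeR.

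In the embryo, cells leave naive pluripotency at implantation and enter a formative state, in which they gain competence for the germ layers and the germ line, and then a primed state on the way to gastrulation. Naive factors such as Klf4 are lost at this transition, the core factor Pou5f1 is kept, and Fgf5, Otx2, Pou3f1 and Zic2 are switched on. Lin28a and Lin28b act at another level, since they bind precursors of the let-7 microRNAs and block their maturation, while let-7 in turn targets the Lin28 messages.

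Promoter sequences were available for 6 of the 9 genes in RefSeq (GRCm38.p6), each with 250 bases before and 50 after the start site. Those of 3 genes are shown, because Fgf5 and Utf1 both had their highest level at 48 h and Pou5f1 kept its level to 72 h. Capitals mark matches, on either strand, to the octamer ATGCAAAT, the SOX motif CATTGT, the OTX motif TAATCC, the GC box GGGCGG and the TATA box TATAAA.
Fgf5, chr5:98253934-98254233, plus strand: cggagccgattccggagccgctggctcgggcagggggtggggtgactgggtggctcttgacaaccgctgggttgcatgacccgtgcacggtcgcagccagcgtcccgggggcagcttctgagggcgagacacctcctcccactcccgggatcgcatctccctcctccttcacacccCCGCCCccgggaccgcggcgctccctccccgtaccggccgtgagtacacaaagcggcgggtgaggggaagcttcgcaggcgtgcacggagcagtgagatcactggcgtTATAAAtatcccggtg
Utf1, chr7:139943606-139943905, plus strand: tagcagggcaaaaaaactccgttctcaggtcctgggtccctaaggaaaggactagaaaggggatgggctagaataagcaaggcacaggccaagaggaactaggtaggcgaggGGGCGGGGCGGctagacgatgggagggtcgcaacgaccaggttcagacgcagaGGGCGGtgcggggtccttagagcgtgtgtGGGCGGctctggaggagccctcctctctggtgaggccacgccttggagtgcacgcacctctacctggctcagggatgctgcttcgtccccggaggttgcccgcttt
Pou5f1, chr17:35505782-35506081, plus strand: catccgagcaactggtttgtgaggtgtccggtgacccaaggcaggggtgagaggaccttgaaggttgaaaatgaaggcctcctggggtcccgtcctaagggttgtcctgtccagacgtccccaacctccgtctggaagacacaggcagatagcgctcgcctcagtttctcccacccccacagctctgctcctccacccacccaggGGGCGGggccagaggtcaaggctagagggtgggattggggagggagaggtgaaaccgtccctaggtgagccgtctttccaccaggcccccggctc
Utf1 had 4 GC boxes, a pair of which shared a base, and the other windows shown had 1 each, and the Fgf5 window had the only TATA box of the 3, placed 34 bases after the annotated start. The octamer, the SOX motif and the OTX motif had no match in these 3 windows. A second Pou5f1 window, from a later start site, held 1 SOX match 158 bases and 1 OTX match 31 bases before that start. Among all 32851 promoters of the same length, 35.7% held the GC box, 13.6% the TATA box, 12.6% the SOX motif, 7.06% the OTX motif and 1.74% the octamer. A match of letters is not evidence of binding, and the absence of one says nothing of the factor.

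The 8 mature let-7 microRNAs named as 5p arms in RefSeq share 1 seed (bases 2 to 8), shown in capitals for let-7a, and its complement CTACCTC was searched in the longest annotated 3′ untranslated region of each gene (Gencode vM21, GRCm38). It occurred 4 times in Lin28b, 2 times in Lin28a, 1 time in Sall4 and not in the other 6 genes. Of 20984 genes, 9.03% held at least 1 such site and 12 held 4 or more. The microRNA and 1 site of each gene, with the seed match in capitals, are printed because the levels of Lin28a and Lin28b parted from those of the other genes late in the time course.
let-7a-5p: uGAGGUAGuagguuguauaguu
Lin28b, chr10:45381020-45381044, minus strand: acccgggcgggaagtCTACCTCatg
Lin28a, chr4:134005187-134005211, minus strand: gcacagcctgttgaaCTACCTCatt
Sall4, chr2:168748938-168748962, minus strand: agggctttaatttatCTACCTCaat
The mature let-7 microRNAs were not measured in these libraries.

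The libraries held 26722541 to 72981570 counts, with a median of 53098728, and levels are given below as counts divided by the library's size factor. Trp53 was 8.80- to 12-fold lower in p53KO–emiRFP cells, compared with their WT–emiRFP parent, at each of the 6 time points, without overlap of the groups. All 9 genes passed the filter on low counts at every time point. Annotated transcripts on the opposite strand overlap Otx2 (Otx2os1), Pou3f1 (Gm2164), Pou5f1 (Gm19553), Sall4 (Gm14261) and Lin28a (Gm13061), and whether the counting used the strand is not given in the sources used here. Pou5f1 also has near-identical pseudogene copies, so its reads that map to several places were not counted.

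The genes differed widely in level. At 48 h, in WT–mCherry cells of WT + WT gastruloids, the normalized count per kilobase of exon was highest for Utf1 (20398), followed by Pou5f1 (14684) and Lin28a (10718). Zic2 (2687), Sall4 (2595) and Pou3f1 (2441) lay close together below them, then Fgf5 (1603) and Otx2 (1467). Lin28b, the paralogue of Lin28a, was the lowest at 481, so that the pair differed in level far beyond the spread of the libraries.

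Passage from mES cells to 48 h gastruloids raised most of these genes. Fgf5, a secreted growth factor of the postimplantation epiblast, had normalized counts of 85.7, 102 and 99.3 in WT–mCherry and 36.4, 52.3 and 64.6 in WT–emiRFP mES cells. At 48 h it stood at 4186, 4037 and 3802 in WT–mCherry and at 4498, 4180 and 4020 in WT–emiRFP cells of WT + WT gastruloids, so that every gastruloid library lay far above every mES library. Taken over the 3 sorted WT populations at 48 h against both WT clones at 0 h, the log2 change was 5.90 ± 0.18 (SE, adjusted p = 9.9e-36, edgeR quasi-likelihood test). Pou3f1, a POU factor of the epiblast also known as Oct6, rose by 4.66 ± 0.13 (adjusted p = 2e-37), from 492 ± 18.7 to 9394 ± 264 in WT–mCherry cells (SD, n = 3). Otx2, a homeobox factor of the epiblast and later of the anterior brain, rose by 3.67 ± 0.13 (adjusted p = 5.5e-33), from 574 ± 59.0 to 6191 ± 478 in the same clone. Zic2, a zinc-finger factor, rose by 2.44 ± 0.06, and Utf1, a chromatin-bound factor of pluripotent cells, by 1.00 ± 0.09.

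Both Lin28 genes rose over the same interval, Lin28b by 1.94 ± 0.10 and Lin28a by 0.81 ± 0.04 on the log2 scale. Sall4, a zinc-finger partner of Pou5f1, fell by 0.41 (SE 0.05, adjusted p = 1.8e-11). Pou5f1, which encodes Oct4, did not pass the test, with a log2 change of -0.08 ± 0.08 (adjusted p = 0.35), and its libraries overlapped, from 29637 to 37569 in WT mES cells and from 28615 to 34978 in WT cells at 48 h. In all, 8 of the 9 genes passed the test between 0 and 48 h, 7 of them upwards, where 70.3% of the 21121 genes tested passed, 33.0% upwards and 37.2% downwards. The median log2 change of the 9 genes was 1.94, against -0.03 over all genes tested.

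Other markers moved alongside. Of 16 further formative and primed genes, 15 were tested, and 12 rose and 3 fell, with Sox3, a SoxB1 factor, highest (4.21 ± 0.13) and Tdgf1, a Nodal co-receptor, lowest (-3.08 ± 0.08). The remaining one, Foxd3, had no counts in most groups. All 14 naive factors fell, Klf4 the most (log2 change -6.02 ± 0.13), and their summed normalized count went from 334317–373819 in WT mES libraries to 45386–63054 at 48 h. Of 9 genes for partners of Pou5f1, 7 fell, with Zfp296 lowest (-2.22 ± 0.10), and Sall1 rose (0.15 ± 0.06). Of 15 genes of the Lin28 and let-7 pathway, 9 rose and 5 fell, from Igf2bp3, an RNA-binding protein (1.07 ± 0.05), to Hmga2, a chromatin protein and let-7 target (-0.57 ± 0.13). The name formative thus held for the time of highest level of Fgf5, Otx2, Pou3f1, Utf1 and Zic2, whereas Pou5f1, Sall4, Lin28a and Lin28b had their highest WT level at other times.

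**Figure D1:**
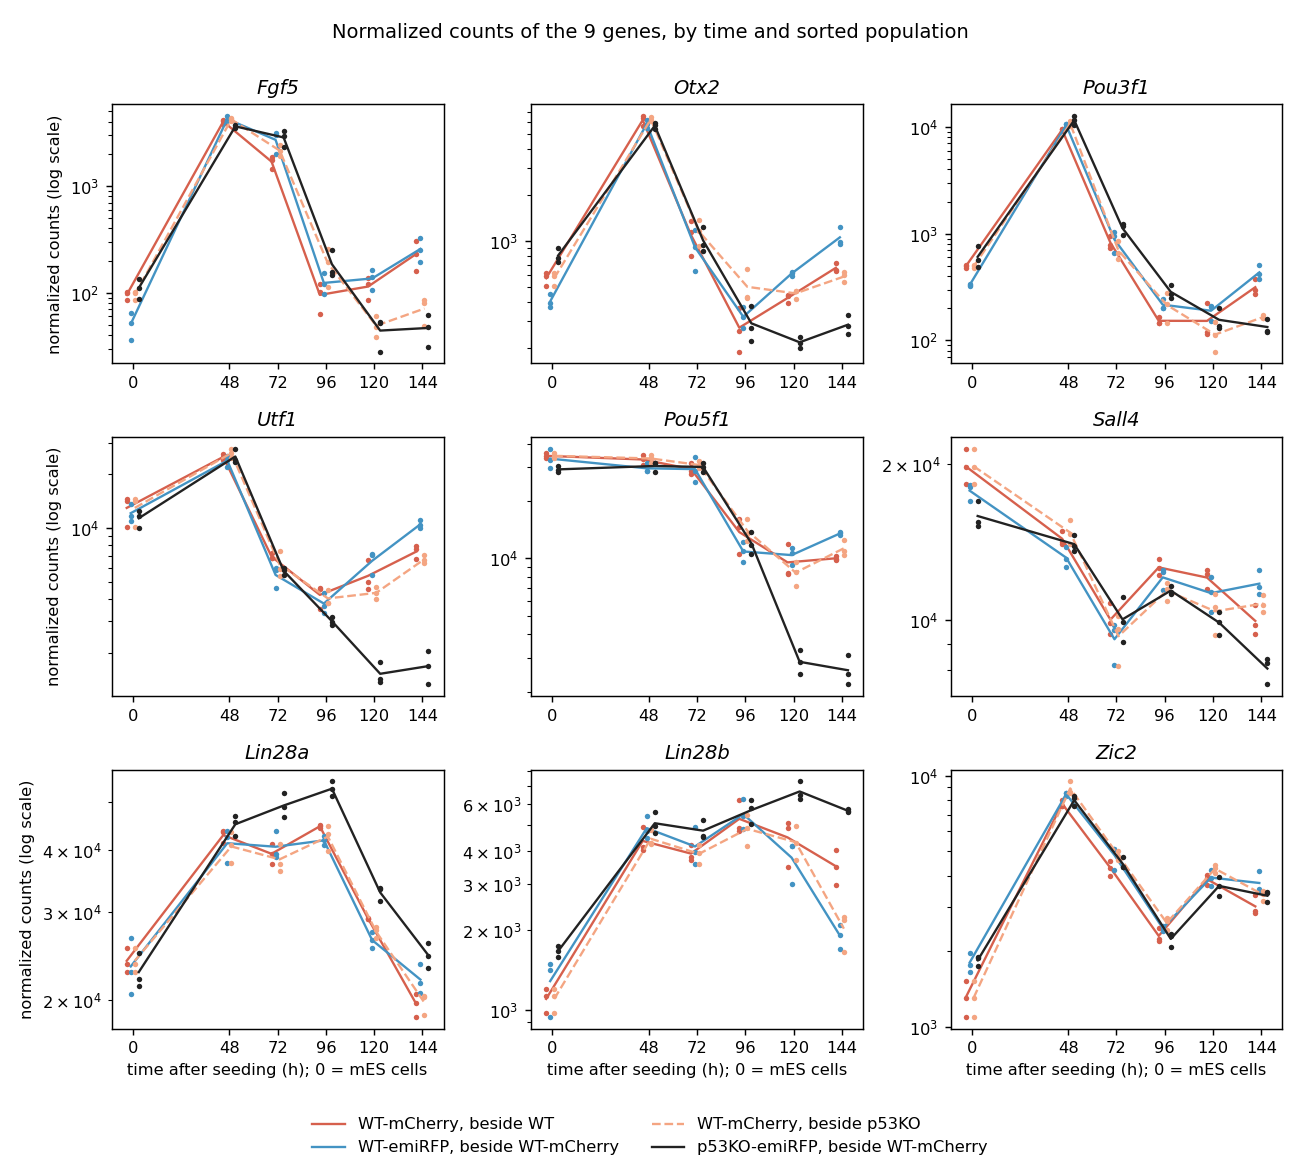
Normalized counts (log axis, with a range set for each panel) of the 9 genes against hours after seeding. Points are single libraries, lines join the means of 3, and the 0 h points of WT–mCherry cells are drawn for both gastruloid types. Fgf5, Otx2, Pou3f1, Utf1 and Zic2 are highest at 48 h in every population, and the p53KO–emiRFP line leaves all WT lines at 120 h for Otx2, Utf1, Pou5f1 and Lin28b. For Fgf5 it lies at 120 h with WT–mCherry cells beside p53KO (means 44.3 and 49.2).

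The 48 h maximum was short. Between 48 and 72 h, the interval of the CHIR pulse, Pou3f1 fell by 3.67 (SE 0.10), Otx2 by 2.54 (SE 0.10) and Utf1 by 2.02 (SE 0.08) on the log2 scale in WT cells. Fgf5 lost less in this interval (-0.95 ± 0.11) and most in the next, when it fell by 4.04 (SE 0.13). Zic2 came down in even steps, by 0.85 and then 0.92. In all, 7 of the 9 genes passed the test to 72 h, all downwards, where 66.8% of all genes passed, and the exceptions were Pou5f1 (-0.10 ± 0.07) and Lin28a (-0.08 ± 0.04). Lin28b changed by -0.19 ± 0.08, a call that was lost without replicate 1 or 2 (adjusted p up to 0.19) and with TMM normalization (adjusted p = 0.057).

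Pou5f1 came down later than the epiblast genes. Its mean in WT–mCherry cells of WT + WT gastruloids went from 33010 ± 2094 at 48 h through 29418 ± 2008 at 72 h to 13749 ± 2850.5 at 96 h (SD, n = 3). The log2 change from 72 to 96 h was -1.23 ± 0.07 (adjusted p = 1.3e-21). Sall4 went the other way in this interval (0.34 ± 0.04), as did Lin28b (0.39 ± 0.08) and, by little, Lin28a (0.13 ± 0.04). All 9 genes passed the test to 96 h, where 58.7% of genes did, although the call for Lin28a was lost without replicate 1 or 2 (adjusted p up to 0.055).

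After 96 h the genes divided. From 96 to 120 h all 9 passed the test in WT cells (56.9% of all genes), with Zic2 (0.71 ± 0.05), Otx2 (0.48 ± 0.11) and Utf1 (0.42 ± 0.08) rising and the others falling. Among the falls, those of Fgf5 (-0.50 ± 0.16, lost without replicate 1 or 2), Pou3f1 (-0.37 ± 0.13, lost without replicate 1) and Sall4 (-0.10 ± 0.04, lost without any 1 replicate) had adjusted p up to 0.18, 0.19 and 0.18 in those fits. From 120 to 144 h, 8 of the 9 passed (55.5% of all genes). Pou3f1 (0.93 ± 0.12), Fgf5 (0.82 ± 0.16), Otx2 (0.60 ± 0.10), Utf1 (0.59 ± 0.08) and Pou5f1 (0.29 ± 0.07) rose again, the last not without replicate 1 (adjusted p = 0.08), while Lin28b fell by 0.81 (SE 0.08), Lin28a by 0.44 (SE 0.04) and Zic2 by 0.26 (SE 0.05). At 144 h, naive factors also stood above their 96 h level in WT cells, with a summed count of 133280–213169 against 55564–78447. So did germ cell markers (sum 15535–20706 against 6612–8521), a list that shares Dppa3 with the naive one. Primitive streak and presomitic mesoderm markers stood below it (sum 2586–4412 against 66260–80666). The part of these markers in the changes of the 9 genes was not tested. In bulk libraries, more cells of a type and more RNA per cell cannot be told apart.

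p53KO mES cells already differed from their parental clone. Fgf5 had 88.2, 111 and 133 normalized counts in p53KO–emiRFP against 36.4, 52.3 and 64.6 in WT–emiRFP mES cells, without overlap. The log2 difference was 1.12 ± 0.23 (adjusted p = 0.011). Otx2 was higher by 1.00 ± 0.13 (adjusted p = 0.00037) and Pou3f1 by 0.88 ± 0.15 (adjusted p = 0.003). These were 3 of the 9 genes, where 6.14% of the 18395 genes tested at 0 h passed. Fgf5 lost its call without replicate 2 or 3 (adjusted p up to 0.2), and Lin28b, at 0.38 ± 0.15 (adjusted p = 0.18), passed with the replicate number as a block (adjusted p = 0.034) or without the filter (adjusted p = 0.036). Of 14 naive factors, 6 were lower and 1 higher in p53KO mES cells (sum 295317–321759 against 349829–373819, with no gene at 0), and of 15 other formative and primed genes 4 were higher and none lower. Their part in the differences of the 3 genes was not tested.

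Part of the same pattern separated the WT clones. WT–mCherry mES cells had higher levels than WT–emiRFP cells for the same 3 genes, with a WT–emiRFP minus WT–mCherry difference of -0.91 ± 0.24 for Fgf5, -0.50 ± 0.13 for Otx2 and -0.58 ± 0.15 for Pou3f1, and a lower level of Zic2 (0.46 ± 0.12). Hence 4 of the 9 genes differed between the WT clones, where 11.1% of genes did, but Otx2 and Pou3f1 lost the call without any 1 replicate and Fgf5 and Zic2 without replicate 2 or 3 (adjusted p up to 0.29), and Zic2 with the compared groups alone (adjusted p = 0.062). With WT–mCherry as the control, a comparison added after the values were seen, Fgf5 (0.21, adjusted p = 0.56) and Pou3f1 (0.30, adjusted p = 0.18) in p53KO cells no longer passed, while Otx2 still did and Lin28b (0.60), Zic2 (0.49) and Sall4 (-0.32) did as well.

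In gastruloids at 48 h, the log2 differences of the 9 genes between p53KO–emiRFP and WT–emiRFP cells lay between -0.23 and 0.15. Of the 9 genes, 1 passed at 48 h, where 22.1% of genes did (10.3% higher and 11.7% lower). This was Fgf5, at 3580, 3515 and 3750.5 against 4498, 4180 and 4020, a log2 difference of -0.23 ± 0.05 (adjusted p = 0.0074) that was lost without replicate 1 or 2 (adjusted p up to 0.14). At 72 h 1 gene passed (29.1% of all genes), Lin28a, which was higher in p53KO cells by 0.27 ± 0.07, again not without replicate 1 or 2 (adjusted p up to 0.1). At 96 h 2 passed (23.3% of all genes, 9.45% higher and 13.8% lower). Lin28a was higher by 0.34 ± 0.05 (adjusted p = 7.8e-05), at 54903, 51197 and 53112 against 41900, 40845 and 42640. Utf1 was lower by 0.33 (SE 0.11, adjusted p = 0.045), a difference lost without replicate 1 or 2 (adjusted p up to 0.26) and with TMM (adjusted p = 0.06).

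Pairing of the libraries by replicate number made smaller differences pass. With the block, 4 of the 9 genes passed at both 48 and 72 h, and 6 did at 96 h, against 41.1%, 39.0% and 38.6% of all genes. Those added were Lin28a (0.13), Pou3f1 (0.15) and Sall4 (0.09) at 48 h, Lin28b (0.20), Pou3f1 (0.35) and Sall4 (0.13) at 72 h, and Fgf5 (0.57), Pou3f1 (0.39), Pou5f1 (0.14) and Zic2 (-0.14) at 96 h, as log2 differences of the unblocked fit. None of these, apart from Fgf5 at 96 h, exceeded 0.5.

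At 120 h the populations parted. Pou5f1 had 2849, 3301 and 2469 normalized counts in p53KO–emiRFP against 9284, 11308 and 10647 in WT–emiRFP cells. Every p53KO library was below every WT library, and the log2 difference was -1.86 ± 0.15 (adjusted p = 2e-07), or 3.62-fold. Utf1 stood at 1424, 1772 and 1380 against 5434, 7102 and 7120.5, again without overlap, and was 4.29-fold lower (log2 difference -2.10 ± 0.15, adjusted p = 4.8e-08). Fgf5 was lower by 1.62 (SE 0.26, adjusted p = 0.00013), with 53.1, 51.6 and 28.1 against 106, 141 and 163, and Otx2 by 1.49 (SE 0.10, adjusted p = 2.2e-08), with 218, 237 and 201 against 592, 632 and 621. Sall4 differed by -0.19 ± 0.07 (adjusted p = 0.046), a call lost without replicate 2 or 3 (adjusted p up to 0.16), and its libraries overlapped. Pou3f1 (-0.28 ± 0.28, adjusted p = 0.43) and Zic2 (-0.11 ± 0.07, adjusted p = 0.23) did not pass.

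At 144 h the same 4 genes were again lower. Pou5f1 was 5.21-fold lower in p53KO–emiRFP cells (2191, 2484 and 3109 against 13717, 13304 and 13524; log2 difference -2.38 ± 0.10, adjusted p = 4.6e-10). Utf1 was 6.24-fold lower, at 1684 ± 353 against 10499 ± 533 (SD, n = 3). Fgf5 was lower by 2.47 (SE 0.31) and Otx2 by 1.90 (SE 0.12), and Pou3f1, at 123, 158 and 119 against 377, 415 and 509, was now lower by 1.70 (SE 0.16, adjusted p = 4.7e-07). Sall4 was lower by 0.54 (SE 0.06, adjusted p = 3.9e-06), with 7524, 8259 and 8422 against 11219, 11588 and 12492. Zic2, at 3328 ± 171 against 3741 ± 392, passed only with the block (log2 difference -0.17, adjusted p = 0.079 without and 0.019 with the block), with TMM or without the filter.

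Both Lin28 genes went the other way. Lin28b had 6511, 6265 and 7315 normalized counts in p53KO–emiRFP against 4158, 2986 and 4152 in WT–emiRFP cells at 120 h, and 5646, 5745 and 5594 against 1925, 1708 and 2102 at 144 h. No library of the 2 groups overlapped, and the log2 difference was 0.83 ± 0.15 (adjusted p = 0.00042) and then 1.57 ± 0.12 (adjusted p = 7.2e-08), or 2.96-fold. Lin28a was higher by 0.32 ± 0.05 at 120 h (adjusted p = 8.3e-05), and at 144 h by 0.16 ± 0.07 (adjusted p = 0.042), which was lost without replicate 1 or 2 (adjusted p up to 0.31), with TMM and with DESeq2. In all, 7 of the 9 genes passed at 120 h, 2 higher and 5 lower, where 51.0% of all genes did (27.3% higher and 23.7% lower), and 8 of the 9 at 144 h, 2 higher and 6 lower, where 65.4% did (33.2% higher and 32.2% lower). Most genes passed at these times, so both counts are read against a high background. The median log2 difference of the 9 genes was -0.28 at 120 h and -1.70 at 144 h, against 0.05 and 0.01 over all genes tested.

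**Figure D2:**
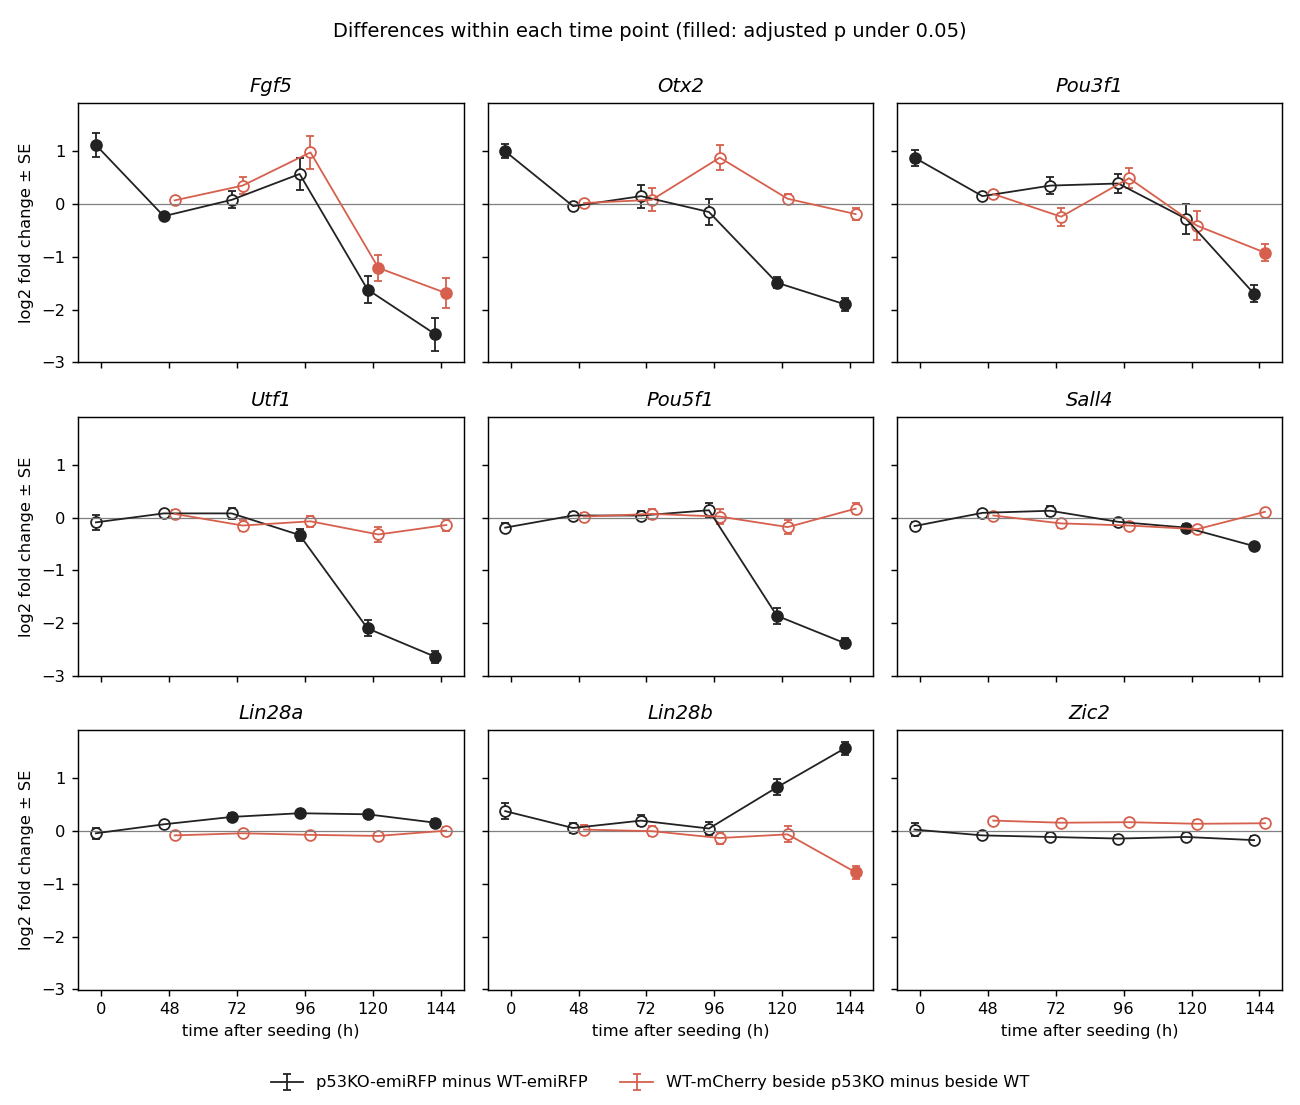
Log2 differences (± SE) of the 9 genes at each time point between p53KO–emiRFP and WT–emiRFP cells (black) and between WT–mCherry cells beside p53KO and beside WT cells (red), with filled points for an adjusted p under 0.05. The black points of Pou5f1 lie between -0.19 and 0.14 to 96 h and reach -1.86 at 120 h and -2.38 at 144 h, while its red points end at 0.17.

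Related genes and cell type markers moved with these differences. In p53KO–emiRFP cells at 120 h all 14 naive factors were lower, Prdm14 the most (-3.43 ± 0.11), and their summed count was 25609–28266 against 139092–156043 in WT–emiRFP cells. All 6 germ cell markers were lower as well (sum 4739–4878 against 14314–15930). Of 10 primitive streak and presomitic mesoderm markers, 8 were higher and 2 lower (sum 52421–59356 against 7582–9326). At 144 h the naive sum was 31461–44790 against 190379–213169, the germ cell sum 5927–6914 against 18793–19684 and the mesoderm sum 13477–14562 against 2586–3002. No gene of these 3 lists was at 0 in either group. Dorsal neural and neural crest markers were higher in 4 of 7 at 120 h and 6 of 7 at 144 h, neural markers in 2 and 4 of 7, with none lower in either list. Of 5 anterior neural markers tested, 3 were higher at 120 h, and 2 were higher and 2 lower at 144 h. Of 6 endoderm markers, 1 was higher and 1 lower at 120 h, and 1 was higher and 2 lower at 144 h. The part of cell types in the differences of the 9 genes was not tested.

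Among the other formative and primed genes, p53KO–emiRFP cells at 120 h had 6 of 15 higher, led by Fgf15 (1.62 ± 0.18), and 5 lower, led by Tdgf1 (-1.95 ± 0.06). Of the partners of Pou5f1, 8 of 9 were lower, most of all Dppa2 (-2.31 ± 0.08), and Sall1 was higher (1.01 ± 0.08). In the Lin28 and let-7 list 12 of 15 were higher, with Plagl2, a zinc-finger factor, the highest (0.91 ± 0.08), and 1 was lower, Trim71 (-0.28 ± 0.10), a let-7 target, against 27.3% of all genes higher and 23.7% lower. Earlier, at 72 h, 7 of 14 naive factors were lower and 1 higher, 5 of 9 partners were higher and 1 lower, 3 of 15 formative and primed genes were higher with none lower, and 4 of the 15 let-7 genes were higher and 3 lower. At 96 h, 11 of 14 naive factors were lower, with Tcl1 the lowest (-1.95 ± 0.15), 4 of the 9 partners were lower, with Sall1 the lowest (-0.77 ± 0.12), and the formative and primed list was split, 5 higher and 5 lower, from Pim2, a kinase (1.36 ± 0.29), to Tdgf1 (-0.55 ± 0.14). The let-7 list then had 2 higher, led by Hmga1 (0.21 ± 0.04), and 1 lower, Hmga2 (-0.79 ± 0.20). At 48 h there were 6 of 15 formative and primed genes higher, 5 of 14 naive factors higher, 4 of 9 partners higher and 5 of 15 let-7 genes higher, led by Tcf15 (0.51 ± 0.11), Dppa3 (1.26 ± 0.14), Dppa2 (0.20 ± 0.05) and Hmga2 (0.38 ± 0.09). Those lower at 48 h were 2, 2, 1 and 1 genes, with Fgf15 (-0.17 ± 0.06), Nanog (-0.44 ± 0.05), Sall1 (-0.21 ± 0.04) and Dis3l2, an exonuclease of let-7 precursors (-0.24 ± 0.06), the lowest of each list.

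The time courses show where the paths separated. In p53KO–emiRFP cells 8 of 9 genes passed to 48 h (59.5% of all genes), 7 higher and Sall4 lower. After it 5 passed to 72 h (46.4%), all lower, 7 to 96 h (44.6%) and 7 to 120 h (35.0%), each 6 lower and 1 higher, and 2 to 144 h (22.7%), both lower. The genes that rose were Sall4 to 96 h (0.18) and Zic2 to 120 h (0.70). Sall4 in these cells had changes of -0.18, 0.18 and -0.21 to 48, 96 and 120 h that were lost without replicate 1 or 2 (adjusted p up to 0.2), and Pou3f1 a fall of 0.85 to 120 h that was lost without replicate 1 (adjusted p = 0.062). From 120 to 144 h only Lin28a (-0.42 ± 0.07) and Sall4 (-0.29 ± 0.07, adjusted p = 0.061 without replicate 2) passed. Otx2, at 0.38 in these cells, passed with the compared groups alone (adjusted p = 0.04) and without the filter (adjusted p = 0.0054), as did Lin28b at -0.24 (adjusted p = 0.0077 and 0.014).

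The difference between these changes was tested itself, as the p53KO–emiRFP change minus the WT–emiRFP change. From 0 to 48 h 2 of 9 genes passed (5.99% of all genes), Fgf5 (-1.35 ± 0.36) and Otx2 (-1.04 ± 0.24), which were the genes with the largest p53KO mES difference. They were lost without replicate 1, and Fgf5 also without replicate 2 (adjusted p up to 0.26 and 0.18). The ratio of WT–emiRFP, the control, to WT–mCherry cells was 0.534 at 0 h and 1.06 at 48 h for Fgf5, and 0.705 and 0.946 for Otx2. The test was not run with WT–mCherry cells as the control. Pou3f1 (-0.72, adjusted p = 0.06) passed with the replicate block (adjusted p = 0.019), the compared groups alone (0.038), without replicate 2 (0.045) and without the filter (1.1e-06). None of the 9 passed to 72 h (1.76%) or to 96 h (11%) with filtered edgeR, or with DESeq2 (2.92% and 16.4% of all genes). An unadjusted edgeR p under 0.05 was seen for 0 and 2 of the 9, and the share of all genes at that threshold was not counted. Without the filter, Fgf5 (0.48, adjusted p = 0.031) and Utf1 (-0.40, adjusted p = 0.002) passed to 96 h. From 96 to 120 h 5 of 9 passed (30.8%): Fgf5 (-2.18 ± 0.40), Pou5f1 (-2.0 ± 0.18), Utf1 (-1.77 ± 0.19), Otx2 (-1.34 ± 0.27) and Lin28b (0.78 ± 0.20). From 120 to 144 h 5 of 9 passed (16.9%), with Pou3f1 at -1.43 ± 0.30, Lin28b at 0.73 ± 0.20, Utf1 at -0.54 ± 0.19, Pou5f1 at -0.52 ± 0.18 and Sall4 at -0.36 ± 0.10. Of these, Lin28b was lost without replicate 1, Sall4 without replicate 2, and Utf1 and Pou5f1 without replicate 1 or 2 (adjusted p up to 0.18, 0.13, 0.49 and 0.49). For Lin28b the ratio of WT–emiRFP to WT–mCherry cells of WT + WT gastruloids also fell, from 0.839 at 120 h to 0.547 at 144 h. The ratios of Utf1 (1.21 to 1.42), Pou5f1 (1.09 to 1.35), Sall4 (0.933 to 1.18) and Pou3f1 (1.245 to 1.376) rose. The part of this shift between the WT clones in the differences was not tested.

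**Figure D3:**
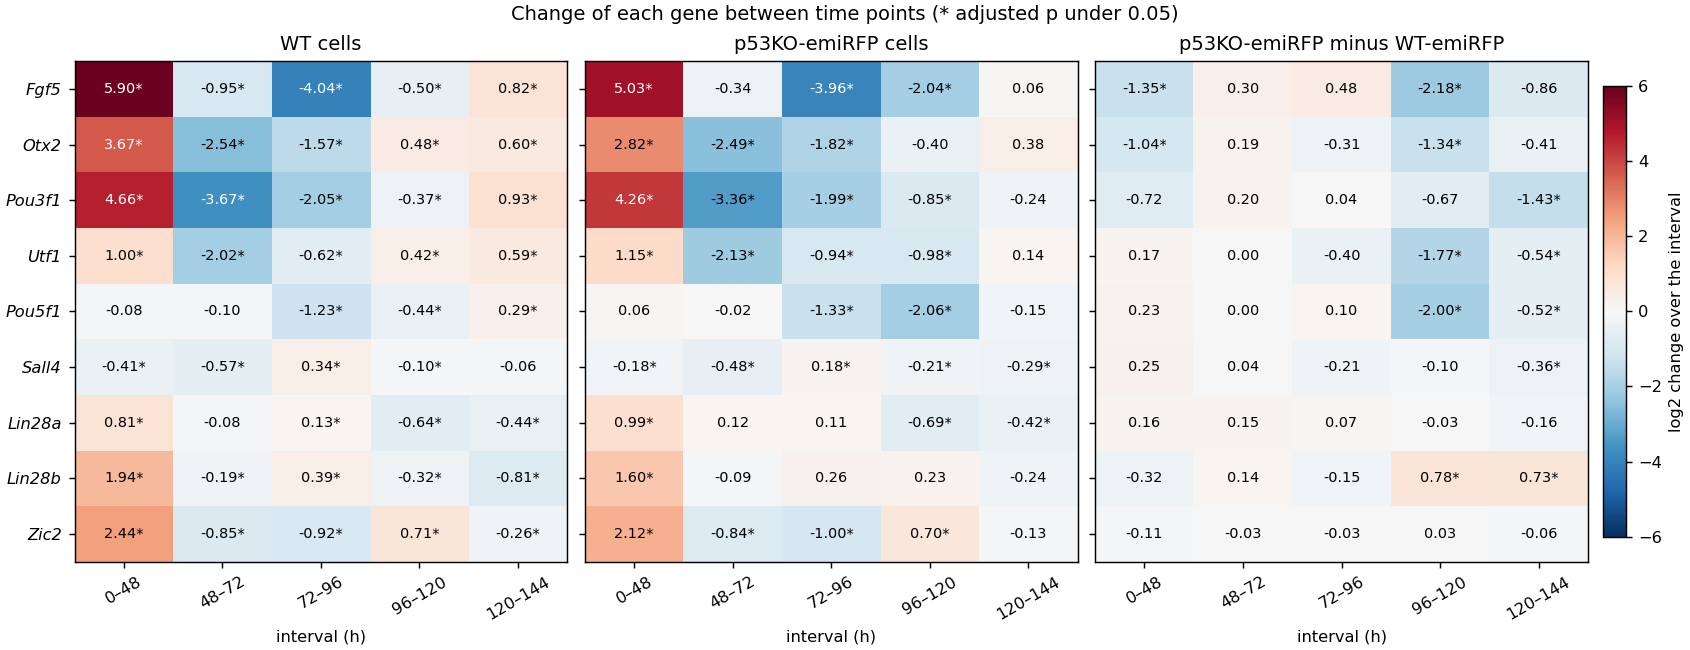
Log2 change of each gene over each interval in WT cells (mean of the sorted WT populations), in p53KO–emiRFP cells, and their difference (p53KO–emiRFP minus WT–emiRFP), with the value printed in each cell and a star for an adjusted p under 0.05. In the panel of the difference, the 96 to 120 h column holds the strongest values, -2.18 for Fgf5 and -2.0 for Pou5f1, and the rows of Lin28a and Zic2 have no star.

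WT–mCherry cells were compared by neighbour to see whether p53KO cells alter the genes of the cells beside them. None of the 9 genes passed at 48 h (0.0736% of all genes), 72 h (0.559%) or 96 h (3.92%), 1 passed at 120 h (5.94%) and 3 at 144 h (25.6%). At 48, 72 and 96 h DESeq2 called 1, 0 and 3 of the 9, where it called 0.288%, 1.75% and 8.53% of all genes. At an unadjusted edgeR p under 0.05 there were 2, 2 and 5 of the 9, and the share of all genes at that threshold was not counted. With the replicate number as a block, 2, 1 and 6 of the 9 passed, where 4.94%, 2.27% and 20.8% of all genes did, and 3 (20.2%) and 5 (37.3%) passed at 120 and 144 h. Those at 96 h included Fgf5 (adjusted p = 2.4e-05) and Otx2 (adjusted p = 6.3e-07), both higher beside p53KO cells. Fgf5 had 48.2, 60.7 and 38.8 normalized counts beside p53KO cells at 120 h against 86.1, 137 and 120 beside WT cells, a log2 difference of -1.21 ± 0.25 (adjusted p = 0.013). This call was lost when any 1 replicate was left out (adjusted p up to 0.1). At 144 h Fgf5 stood at 80.1, 48.8 and 84.8 against 229, 159 and 307 (-1.69 ± 0.29, adjusted p = 0.0013), without overlap. Pou3f1, with 163, 173 and 162 against 272, 295 and 379, was lower by 0.92 (SE 0.16, adjusted p = 0.0012), and Lin28b, with 2194, 1649 and 2244 against 3474, 2980 and 4028, by 0.78 (SE 0.12, adjusted p = 0.00063). The 3 differences at 144 h held when each replicate was left out.

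Cell type markers differed between these libraries too. At 120 h, 8 of 10 primitive streak and presomitic mesoderm markers were higher beside p53KO cells and 1 was lower, with a summed count of 23379–29193 against 11547–14385. The p53KO–emiRFP cells themselves had a sum of 52421–59356. RNA of emiRFP cells made up a mean of 5.60% (H2bc14) or 14.6% (H2bc21) of the WT–mCherry libraries beside them, as described below. It was not subtracted from the marker counts and sums, and its part in them was not tested. Of 14 naive factors, 6 were lower at 72 h, 4 at 96 h and 3 at 120 h, with none higher (120 h sum 95607–98548 against 109315–134874), and of 6 germ cell markers 3 were lower at 96 h and 2 at 120 h, with none higher (120 h sum 10720–11940 against 12841–15588). The naive list went the other way at 144 h, with 1 higher and none lower (sum 153125–159618 against 133280–148407). At 144 h, 6 of 7 neural markers were lower (sum 2769–4352 against 4403–5212), while 5 of 6 germ cell markers were higher and 1 lower (sum 19129–20706 against 15535–16785). The same mesoderm markers were then higher in 6 and lower in 1 of 10, with overlapping sums. In the Lin28 and let-7 list 6 of 15 genes were lower and none higher at 144 h, and of 6 endoderm markers 1 was higher at 120 h and 2 at 144 h, with none lower. No gene of the naive, germ cell, mesoderm, neural and endoderm lists was at 0 in either group, and their part in the differences of Fgf5, Pou3f1 and Lin28b was not tested.

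Pou5f1 and Utf1, which were far lower in p53KO cells, had smaller differences in the neighbours. For Pou5f1 the log2 difference was -0.18 ± 0.14 at 120 h and 0.17 ± 0.10 at 144 h, and for Utf1 -0.32 ± 0.14 and -0.14 ± 0.11. None of these passed in the unblocked fit, but Utf1 at 120 h passed with the replicate number as a block (-0.30, adjusted p = 0.013) and without the filter (adjusted p = 0.00056). At 96 h Otx2 was at 433, 654 and 424 beside p53KO cells against 261, 366 and 190 beside WT cells (0.88 ± 0.24, adjusted p = 0.054), and Fgf5 differed by 0.98 ± 0.31 (adjusted p = 0.091), neither past the threshold in the unblocked edgeR fit. Both passed with the replicate number as a block (adjusted p = 6.3e-07 for Otx2 and 2.4e-05 for Fgf5) and with DESeq2 (adjusted p = 0.047 and 0.019).

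Sorted WT–mCherry libraries held some RNA of emiRFP cells. H2bc14 and H2bc21, histone genes with means of 9940.5 and 588 normalized counts in WT–emiRFP but 7.24 and 18.3 in WT–mCherry mES cells, gave a mean share of 5.60% and 14.6% in the WT–mCherry libraries beside p53KO cells at 120 h and 9.37% and 13.9% at 144 h, against 1.23% and 4.78% on average beside WT cells at 144 h. The libraries beside p53KO cells were uneven, with 16.8%, 2.26% and 9.10% by H2bc14 at 144 h, and with up to 25% at 120 h and 19.6% at 144 h by H2bc21. After this share of the emiRFP profile was subtracted by H2bc14, Fgf5 differed by -1.21 at 120 h and by -1.59 at 144 h, Pou3f1 by -0.88 and Lin28b by -1.09, all past the threshold as before, and Otx2 at 96 h now passed (0.90, adjusted p = 0.049). By H2bc21, Otx2 at 96 h (0.92, adjusted p = 0.045), Pou5f1 (0.38, adjusted p = 0.019) and Sall4 (0.19, adjusted p = 0.044) at 144 h passed as well. Lin28b moved away from the p53KO level, which was higher than that of either WT–mCherry group.

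The 2 WT clones within WT + WT gastruloids show how far these genes vary without p53 loss. None of the 9 passed at 48 h (8.90% of all genes) or 96 h (2.15%), and DESeq2 called 0 (10% and 5.27% of all genes). At an unadjusted edgeR p under 0.05 there were 4 and 2 of them, and the share of all genes at that threshold was not counted. With the replicate number as a block 5 and 2 passed (28.9% and 15.9% of all genes). At 72 h (7.64%) and 120 h (1.22%) 1 each passed: Fgf5, higher in WT–emiRFP cells by 0.68 ± 0.16 at 72 h, and Otx2, higher by 0.53 ± 0.09 at 120 h. Both were lost without some replicates (Fgf5 without 1 or 2, Otx2 without 1 or 3, adjusted p up to 0.27 and 0.45), and Otx2 also with the compared groups alone (adjusted p = 0.058). With the block 4 of the 9 passed at each of these times (16.2% and 10.8% of all genes). At 144 h 7 of 9 passed (23.8%). WT–emiRFP cells had more Otx2 (0.66 ± 0.12), Utf1 (0.51 ± 0.11), Pou3f1 (0.46 ± 0.15), Pou5f1 (0.43 ± 0.10), Zic2 (0.31 ± 0.08) and Sall4 (0.24 ± 0.06) and less Lin28b (-0.87 ± 0.12) than WT–mCherry cells. Pou3f1 was lost without any 1 replicate and with the compared groups alone (adjusted p = 0.062), Pou5f1 without replicate 2, and Sall4 and Zic2 without replicate 1 or 2 (adjusted p up to 0.15, 0.064, 0.11 and 0.084). Of 14 naive factors, 9 were lower in WT–emiRFP cells and none higher at 48 h (sum 45386–46440 against 57357–63054) and again at 72 h (sum 42819–46114 against 59104–60796), whereas 3 were higher at 120 h and 13 at 144 h, with none lower (144 h sum 190379–213169 against 133280–148407). Of 10 primitive streak and presomitic mesoderm markers, 2 were higher and none lower at 72 h (sum 55267–69516 against 44451–53037). At 120 h 1 of them was higher and 3 were lower (sum 7582–9326 against 11547–14385). At 144 h 5 of 7 dorsal neural and neural crest markers (sum 1271–2020 against 2941–4611) and 4 of 7 neural markers (sum 2047–2698 against 4403–5212) were lower, none of them at 0 in either group, and their part in these differences was not tested. This comparison shares its WT–emiRFP libraries with that of p53KO–emiRFP cells. Against WT–mCherry cells of WT + WT gastruloids, at 10021 ± 230 for Pou5f1, 7384 ± 621 for Utf1 and 3494 ± 524 for Lin28b, the p53KO–emiRFP levels of 2595 ± 469, 1684 ± 353 and 5662 ± 76.5 also did not overlap (SD, n = 3).

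Across the 23 conditions the genes formed a gradient and not 1 block. Pearson's r of log2 mean level was 0.957 for Otx2 with Pou3f1, 0.872 for Fgf5 with Pou3f1, 0.861 for Otx2 with Utf1, 0.780 for Otx2 with Zic2 and 0.671 for Lin28a with Lin28b. Lin28b ran against Sall4 (-0.594), Pou5f1 (-0.394) and Utf1 (-0.390). Conditions of a gastruloid type and time share aggregates, and the values include the 0 to 48 h step, whose weight in them was not tested, so these are descriptions. Among 14078 genes, the profiles most like those of the members were Mmp25, Galr2 and Rapgef5 for Fgf5 (r = 0.978, 0.972 and 0.967), Kcng3, Zic5 and Kcnk1 for Otx2 (0.979, 0.976 and 0.975), Emb, Mfap3l and Supt6 for Pou3f1 (0.986, 0.985 and 0.981), and 4930526L06Rik, Slc5a11 and Bmerb1 for Utf1 (0.980, 0.976 and 0.973). For Pou5f1 they were Mthfd1, Ccnb1ip1 and 1110008P14Rik (0.968, 0.967 and 0.965), for Sall4 Tgif1, Chtf18 and Atg101 (0.939, 0.931 and 0.930), for Lin28a Mrm3, Eef1aknmt and Gm17018 (0.974, 0.958 and 0.957), for Lin28b Limd2, Lratd2 and Fndc4 (0.976, 0.975 and 0.971), and for Zic2 2610035F20Rik, Rragd and Pde4b (0.983, 0.942 and 0.942).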

How the data were processed

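The authors trimmed the reads of the 69 libraries with Trim Galore 0.6.7, aligned them with STAR 2.7.11b to GRCm38.p6 and deposited counts of uniquely mapped reads per gene. Whether the counting used strand is not given in the sources used here. Counts were divided by median-ratio size factors (0.484 to 1.301, from 17794 genes). Tests were edgeR 4.0.16 quasi-likelihood fits in R 4.3.3, with filterByExpr and Benjamini-Hochberg adjustment over all genes, on the 12 libraries of a time point (9 at 0 h) or on all 69 libraries for changes between times. Alternatives were DESeq2 1.42.0, TMM, no filter, the compared groups alone, a replicate block, removal of each replicate, and subtraction of emiRFP RNA. The method was also run on simulated data, as a technical check that does not bear on the calls given here. The 9 genes are all named, and of 4 gene lists the strongest rise and fall past the threshold. The members, lists and tests were chosen with earlier results of these data known.

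Same-numbered libraries of p53KO–emiRFP and WT–emiRFP cells deviated together from their group means, with a correlation over 14078 genes of 0.118 to 0.494 in 15 of 15 pairs in gastruloids and 0.123 to 0.291 in 3 of 3 pairs of mES cells. The blocked fit was therefore set beside the unblocked one for this comparison. In the others at least 1 pair fell under 0.1, and the block is an alternative only. Libraries held 26722541 to 72981570 counts. Errors of log2 changes and differences are standard errors of the edgeR fit, and those marked SD are the spread between replicates.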

Additional observations from a re-analysis of the deposited data

Results flagged for a closer look

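The change between consecutive time points differed between p53KO–emiRFP and WT–emiRFP cells, by a test of the difference itself in edgeR with Benjamini-Hochberg adjustment over all genes, in 12 cases. Values are log2 changes in p53KO–emiRFP minus those in WT–emiRFP cells. From 0 to 48 h the difference was -1.35 for Fgf5 (adjusted p = 0.016) and -1.04 for Otx2 (adjusted p = 0.004). From 96 to 120 h it was -2.18 for Fgf5 (adjusted p = 1.7e-05), -1.34 for Otx2 (adjusted p = 9.1e-05), -1.77 for Utf1 (adjusted p = 8.4e-11), -2.0 for Pou5f1 (adjusted p = 2.8e-13) and 0.78 for Lin28b (adjusted p = 0.0019). From 120 to 144 h it was -1.43 for Pou3f1 (adjusted p = 0.00033), -0.54 for Utf1 (adjusted p = 0.043), -0.52 for Pou5f1 (adjusted p = 0.035), -0.36 for Sall4 (adjusted p = 0.011) and 0.73 for Lin28b (adjusted p = 0.007). Of the 12, the 2 from 0 to 48 h and those of Utf1, Pou5f1, Sall4 and Lin28b from 120 to 144 h were lost when 1 replicate was left out. WT–emiRFP cells were the only control in this test. Their ratio to WT–mCherry cells shifted as well from 0 to 48 h and from 120 to 144 h, as given above, and WT–mCherry cells were not used as the control.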

How the results depend on the processing

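No call of the 9 genes changed sign under any alternative. Counts of calls are given over all 9 genes and time points, without a pooled share of all genes. That share moved with the setting too. For WT–mCherry cells by neighbour at 96 h it was 3.92%, with 8.53% by DESeq2, 4.28% without the filter and 20.8% with the replicate block. For p53KO–emiRFP against WT–emiRFP cells 22 of 54 passed, 34 with the replicate block, and 16 to 21 when a replicate was left out. For WT–mCherry cells by neighbour 4 of 45 passed, 8 with DESeq2, 7 with emiRFP RNA subtracted by H2bc21, 10 without the filter, 17 with the replicate block, and 3 to 4 when a replicate was left out. For WT–emiRFP against WT–mCherry cells 13 of 54 passed, 27 with the replicate block, and 4 to 8 when a replicate was left out. The difference in change between times passed in 12 cases, in 13 with the replicate block, in 18 without the filter and in 7 to 12 when a replicate was left out. Changes over time passed in 41 cases in WT and 29 in p53KO–emiRFP cells, with 35 to 42 and 25 to 35 over all alternatives, 41 and 31 of them with the replicate block. Whether replicate numbers mark the 3 experiments is not stated, and deviations of same-numbered libraries correlated at 0.072 to 0.626 for WT–mCherry cells by neighbour and at 0.038 to 0.688 for the WT clones in gastruloids, over 0.1 in 14 of 15 pairs of each. The cause of these shifts was not tested. The p53KO genotype is 1 clone, so that clone and loss of p53 cannot be told apart. In gastruloids, p53KO–emiRFP cells came only from WT + p53KO and WT–emiRFP cells only from WT + WT aggregates. Genotype therefore cannot be told apart from gastruloid type, number of cells seeded and neighbours. The neighbour of WT–mCherry cells likewise cannot be told apart from the number of cells seeded. With 3 libraries a group, what small differences can pass is limited.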
